A study of Mus musculus with 6 samples.

Results

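The miRNAs described here are 7 rows of a small RNA count table, out of 1973 rows in all, chosen by gene name because their miRNAs are known from work on lipid metabolism. They are Mir33, Mir103-1, Mir103-2, Mir107, Mir122, Mir378c and Gm25301, a gene that lies opposite Mir378a and stands for it. These rows were chosen with earlier results of these data known. The counts come from exosomes that HN9.10e cells, an immortalized mouse hippocampal neuron line of wild type genotype, released into medium supplemented with fetal bovine serum. In the control group the cells were left untreated (3 libraries), and in the ceramide group they received 100 nM of a short-chain, cell-permeable ceramide (3 libraries), with exosomes isolated after 48 h in both. The labels number the libraries 1 to 3 within each group and do not say whether these were separate cultures, so that the p-values measure the spread between these libraries. A row is a hairpin gene, and it adds the 5p and 3p miRNAs of that hairpin together.

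A miRNA acts through its seed, bases 2 to 8 of the mature strand, which pairs with target mRNAs and lowers the protein made from them. miR-33 lies in an intron of Srebf2, the master regulator of cholesterol synthesis, and is known for repressing the cholesterol exporter Abca1, so that it and its host act in the same direction. miR-103 and miR-107 lie in introns of pantothenate kinase genes, which start the synthesis of coenzyme A, and are known for their action on insulin sensitivity. miR-122 is the major miRNA of liver, where it sustains cholesterol and fatty acid synthesis. miR-378a lies in Ppargc1b, a coactivator of mitochondrial genes, and is linked to fatty acid oxidation.

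The mature sequences of 5 of the 7 rows were taken from RefSeq (GRCm38.p6) and are shown because they decide which rows can hold the same reads. The seed is in capitals.
miR-33-5p: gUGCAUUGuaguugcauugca
miR-103-3p, of both Mir103-1 and Mir103-2: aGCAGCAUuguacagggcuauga
miR-107-3p: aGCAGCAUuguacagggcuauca
miR-378c: aCUGGACUuggagucagaagc
miR-378b, a relative: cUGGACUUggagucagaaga
miR-378d, a relative: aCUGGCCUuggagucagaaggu
miR-103-3p and miR-107-3p share their seed and, counted from 1 at the 5′ end, their first 21 bases, and the substitution G22C is the only difference between them. No other entry among the sequences compared has this seed, and none shares the seed of miR-33-5p. Bases 1 to 7 of miR-103-3p form the seed of 10 other miRNAs among them, such as miR-15a-5p and miR-16-5p, so that the letters of these seeds overlap. Sequences from some chromosomes, including that of Mir122 and Gm25301, were not part of this comparison. miR-378c and miR-378d differ by A6C, inside the seed, and by C21G, whereas miR-378b starts 1 base later and differs from miR-378c by C21A only. Mir122 and Gm25301 are named only, because no sequence of them was at hand. Whether the rows of Gm25301 and Mir378c can hold the same reads was therefore not checked.

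The hairpins of the miR-103 and miR-107 genes are shown with the 3p strand in capitals, because the rows of the table are hairpins.
Mir103-1: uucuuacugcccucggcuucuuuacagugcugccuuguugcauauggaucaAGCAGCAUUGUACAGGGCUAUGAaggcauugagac
Mir103-2: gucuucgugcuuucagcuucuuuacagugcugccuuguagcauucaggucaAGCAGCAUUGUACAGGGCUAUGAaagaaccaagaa
Mir107: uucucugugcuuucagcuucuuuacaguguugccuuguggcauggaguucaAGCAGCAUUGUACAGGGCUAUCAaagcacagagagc
The 3p strand is the same in Mir103-1 and Mir103-2, and the longest stretch shared by these hairpins is 27 bases. For Mir107 and either of them it is 24 bases.

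All 7 rows passed the filter on low counts and were tested with the whole table of 418 such rows. Total counts ranged from 800810 to 2760015 per library, so that 1 count was worth between 0.379 and 1.30 normalised CPM (counts scaled by library size and TMM). Of the 10 neuronal marker hairpins chosen to check the cells, 9 had a row with counts, with a summed level of 8114 to 9300 CPM in control and 5864 to 6477 CPM in ceramide libraries. The neuron-defining Mir124a rows lay at 19.0 to 20.96 CPM in control and 14.3 to 14.9 CPM in ceramide libraries. In 6 of the 9 marker rows all ceramide libraries lay below all control libraries, against 25.1% of all rows tested, but 3 of these 6 are the Mir124a rows, which hold nearly the same counts and amount to 1 measurement. The other 3 are Mir128-1, Mir128-2 and Mir138-1. The groups overlapped in Mir9-2 and Mir9-3 (log2 fold change 0.14 each), which also hold nearly the same counts. The groups of Mir138-2 (-0.21), the other hairpin of miR-138, overlapped as well. The highest levels in the sum were those of Mir138-1 and Mir138-2. They averaged 3930 and 3381 CPM in control and 2315 and 2918 CPM in ceramide libraries. The part of these marker changes in the levels of the 7 rows was not tested. Control replicate 1 and ceramide replicate 1 carry lane 1 in their labels. The other control libraries carry lane 4 and the other ceramide libraries lane 2. Beyond lane 1 the lane and the treatment thus cannot be told apart. The headers of both replicate 1 libraries also carry the same sample number, and no label says whether any libraries shared a run. A lane number may therefore stand for different runs, and run and treatment cannot be told apart. With the lane as a term in a fit, the effect of ceramide rests on the replicate 1 libraries alone.

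With ceramide, the exosomal levels of Mir378c, Gm25301 and Mir33 fell, whereas both Mir103 rows stayed near their control level. Mir378c fell most of the 7, to 0.484 of its control level, Gm25301 to 0.649 and Mir33 to 0.657. Their changes passed both thresholds, a log2 fold change of 0.6 or more in size and a p of 0.05 or less from the quasi-likelihood test of edgeR after Benjamini-Hochberg adjustment over all 418 rows, and are referred to as called. Thus 3 of the 7 rows were called lower and none higher, against 8.37% lower and 3.11% higher over all rows tested. With the replicate number as a block the same 3 rows were called, against 11.7% lower and 9.09% higher over all rows. Median-of-ratios and upper-quartile scaling each left 1 of the 7 rows called lower, against 6.22% and 6.7% over all rows. Of 15 other settings, Mir378c kept its call in 14, Gm25301 in 10 and Mir33 in only 4. At an unadjusted p under 0.05, 1 of the 7 rows was higher (Mir122) in edgeR, 1 in limma-voom and none in DESeq2. Mir378c and Gm25301 are among the miRNAs that the study itself picked from these libraries, so that their calls are not independent evidence. Reads shared between these rows were not checked, and they may not be separate measurements. The median log2 fold change was -0.46 over the 7 rows and -0.01 over all rows tested. The 7 rows were chosen with earlier results of these data known, which limits this median and the share called. Mir107 and Mir122 lay on opposite sides of 0 and passed neither threshold, as described for each row. In 4 of the 7 rows all ceramide libraries lay below all control libraries, and in Mir122 all lay above, whereas such a separation was found downward in 25.1% and upward in 14.1% of all rows tested.

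**Figure D1:**
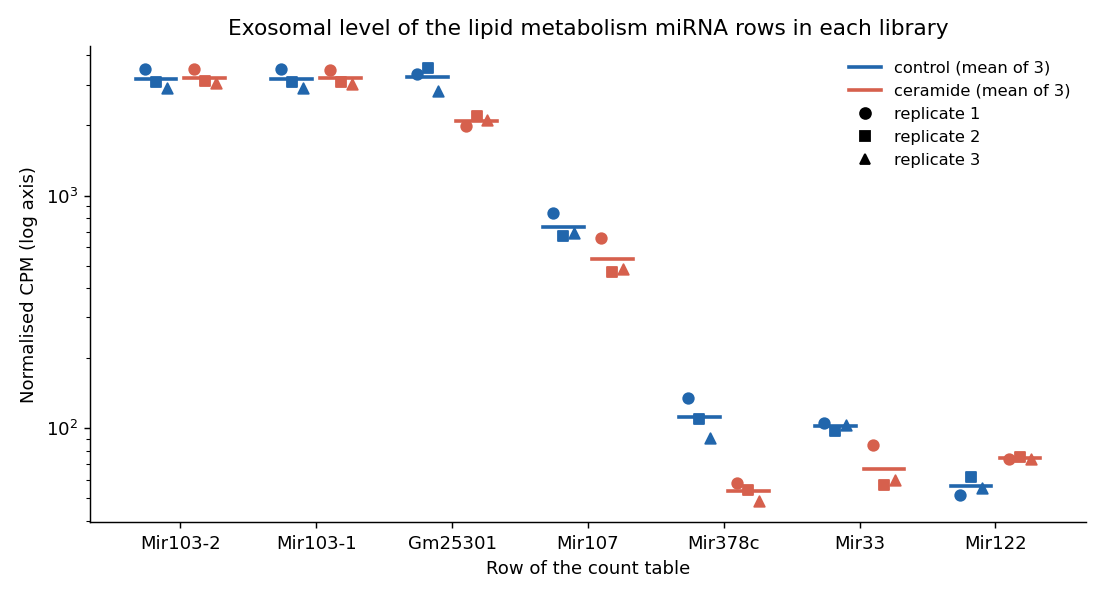
Normalised CPM of the 7 rows in each library on a log axis, with controls in blue, ceramide in red, 1 symbol per replicate number and a bar for the mean of 3 libraries. The points of both groups overlap in Mir103-1 and Mir103-2 and are apart in the other 5 rows.

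**Figure D2:**
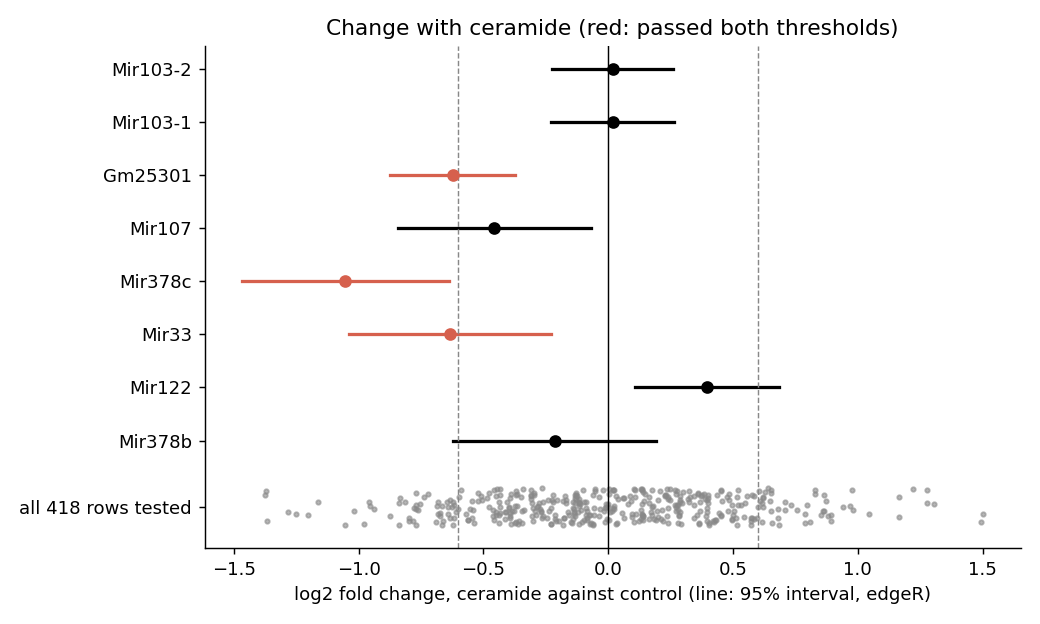
Log2 fold change of ceramide against control with its 95% interval from edgeR for the 7 rows and for Mir378b, above the values of all 418 rows tested, with dashed lines at the fold threshold of 0.6. Mir378c, Mir33 and Gm25301, in red, passed both thresholds.

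In control exosomes the 7 rows spanned levels from 56.5 to 3231 CPM. A read of small RNA is a whole mature strand, so that CPM was not divided by the length of the hairpin. Gm25301, Mir103-2 and Mir103-1 were the highest, with 3231 ± 372, 3165 ± 312 and 3159 ± 316 CPM (SD, n = 3 each), and their ranges overlapped. Mir107 followed with 733 ± 93.6 CPM. Mir378c (112 ± 22.1 CPM) and Mir33 (102 ± 4.39 CPM) overlapped as well, and Mir122 was the lowest with 56.5 ± 5.04 CPM. In ceramide exosomes both Mir103 rows stood above Gm25301, with no overlap, and the order of the 3 lowest rows was turned around, with Mir122 at 74.4 ± 0.896, Mir33 at 67.2 ± 14.99 and Mir378c at 54.0 ± 4.78 CPM (SD, n = 3 each). The ranges of Mir33 overlapped those of both its neighbours there. With Mir103-1 standing for both miR-103 rows, the remaining 6 rows made up 0.759 ± 0.0643% of all counts in control and 0.585 ± 0.0207% in ceramide libraries (SD, n = 3 each). The total of all counts still included Mir103-2 and other rows that hold nearly the same counts as another row.

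Mir33 (chromosome 15, 82198122 to 82198190, plus strand, GRCm38) lies in an intron of Srebf2 on the same strand. Its level was 106, 97.4 and 104 CPM in control replicates 1, 2 and 3, and 84.5, 57.2 and 60.0 CPM in ceramide replicates 1, 2 and 3. The control libraries lay close together and all above the ceramide libraries, of which replicate 1 was the highest. This gave a log2 fold change of -0.63 for Mir33 (SE 0.17, adjusted p = 0.044, edgeR), from 742 counts in the 6 libraries together. The call was lost in 11 of 15 other settings. Among them were the lane as a term, which moved it most (-0.32) and rests on the replicate 1 libraries alone, and DESeq2 (-0.61, adjusted p = 0.083). Scaling by median-of-ratios (-0.56) or upper-quartile factors (-0.57) lost it as well. So did every fit without 1 library except the one without ceramide replicate 1 (-0.82, adjusted p = 0.0068). Without control replicate 1, 2 or 3 the value was -0.61, -0.64 and -0.62, and without ceramide replicate 2 or 3 it was -0.53 and -0.57. Over the settings other than the lane term the adjusted p ranged from 0.0061 to 0.17.

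Mir103-1 (chromosome 11, 35782396 to 35782481, an intron of Pank3) and Mir103-2 (chromosome 2, 131288052 to 131288137, an intron of Pank2) both lie on the plus strand like their hosts. Mir103-1 had 3516, 4321 and 3956 counts in the control libraries and 2675, 8154 and 7109 in the ceramide libraries. Mir103-2 exceeded it by only 1 to 27 counts in any library, or by 0.028% to 0.39%. The mature 3p strand of the rows is the same, as shown above, so that their counts are not independent and they are described as 1 measurement. In normalised CPM, Mir103-1 had 3509, 3072 and 2895 in control replicates 1, 2 and 3 and 3476, 3088 and 3027 in ceramide replicates 1, 2 and 3. The groups overlapped fully, and in both of them replicate 1 was the highest. Between the groups Mir103-1 had a log2 fold change of 0.02 (SE 0.10, adjusted p = 0.93, edgeR), with a 95% interval from -0.23 to 0.26 that leaves out the threshold of 0.6 on both sides. Mir103-2 gave a log2 fold change of 0.02 as well. The sign of both values was turned by library size alone as the scaling and by 4 other settings, and it stands for no direction.

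Mir107 (chromosome 19, 34820687 to 34820773, minus strand) lies in an intron of Pank1 on the same strand. Its level was 840.3, 668 and 690.0 CPM in control replicates 1, 2 and 3 and 655, 470.0 and 483 CPM in ceramide replicates 1, 2 and 3. All ceramide libraries lay below all control libraries, but ceramide replicate 1 came within 13.5 CPM of control replicate 2. For Mir107 the log2 fold change was -0.46 (SE 0.16, 95% interval -0.84 to -0.07), with an adjusted p of 0.094 from edgeR, so that it passed neither threshold. With the replicate number as a block the adjusted p was 0.0056 at a log2 fold change of -0.46, still short of the fold threshold. Without ceramide replicate 1 Mir107 passed both (-0.64, adjusted p = 0.021), and over all settings its adjusted p ranged from 0.0056 to 0.28.

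Mir107 and Mir103-1 carry the same seed, and their ratio within a library does not depend on any scaling between libraries. Mir107 had 23.9, 21.8 and 23.8 counts per 100 counts of Mir103-1 in control replicates 1, 2 and 3, and 18.8, 15.2 and 16.0 in ceramide replicates 1, 2 and 3. The ratio was lower in each ceramide library than in any control library. The exact binomial 95% interval, which covers counting error only, reached from 17.1 to 20.7 in ceramide replicate 1, the highest of its group, and from 20.3 to 23.3 in control replicate 2, the lowest of its group. Ceramide and control differed by -0.48 in the log2 ratio, against an SD within groups of 0.13 (p = 0.1 in a two-sided exact permutation test, which with 3 libraries against 3 cannot go lower, and 0.12 after Benjamini-Hochberg adjustment over the 6 ratios computed). In the 3 pairs of libraries with the same replicate number the difference was -0.35, -0.52 and -0.58, the first of which is from the libraries labelled lane 1. Reads that end before base 22 carry nothing that tells miR-107-3p from miR-103-3p. The methods name the gene counts of STAR without saying how reads that align equally well to several genes were treated. Both Mir103 rows, with the same 3p strand, held nearly the same counts. The part of shared reads in the row of Mir107, and so in this ratio, was not tested.

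Gm25301 (chromosome 18, 61397813 to 61397925, plus strand) lies opposite an intron of Ppargc1b. Mir378a lies within it on the minus strand, from 61397835 to 61397900, and has no row of its own in the table. The strand setting of the counting is not given in the sources used here, so that reads of the 2 strands cannot be told apart. Gm25301 had 3326, 3546 and 2822 CPM in control replicates 1, 2 and 3 and 1984, 2198 and 2107 CPM in ceramide replicates 1, 2 and 3. The groups were apart by 623 CPM. For Gm25301 the log2 fold change was thus -0.62 (SE 0.11, adjusted p = 0.0074, edgeR). This lies close to the threshold of 0.6, and the call was lost with median-of-ratios (-0.55) or upper-quartile scaling (-0.56) and without control replicate 2 (-0.53). It was also lost by the adjusted p without control replicate 1 (-0.61, adjusted p = 0.053) and with the lane as a term (-0.75). The value with the lane as a term rests on the replicate 1 libraries alone. Over the settings other than the lane term the adjusted p ranged from 0.0028 to 0.053, and the sign was negative in all 15.

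Mir378c (chromosome 14, 46954830 to 46954928, minus strand) lies opposite an intron of Samd4, which encodes an RNA-binding repressor of translation. It had 135, 109 and 90.7 CPM in control replicates 1, 2 and 3 and 58.5, 54.5 and 49.0 CPM in ceramide replicates 1, 2 and 3. The control libraries were more spread out than the ceramide libraries, and the lowest of them was still 1.55 times the highest ceramide library. Mir378c thus had a log2 fold change of -1.05 (SE 0.18, 95% interval -1.47 to -0.64, adjusted p = 0.0070, edgeR), from 717 counts in all. It was called in 14 of 15 other settings, and in these its adjusted p ranged from 0.00093 to 0.038. The values of all 15 lay between -1.20 and -0.91. The call was lost with the lane as a term, at -1.20, a fit with 2 residual degrees of freedom whose value rests on the replicate 1 libraries alone.

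Mir378b and Mir378d were rarer than Mir378c. Mir378b lay at 19.9 ± 0.801 CPM without and 17.6 ± 2.74 CPM with ceramide (SD, n = 3 each), with overlapping groups. Its log2 fold change of -0.21 did not pass (SE 0.17, 95% interval -0.62 to 0.19, adjusted p = 0.39 from edgeR). Mir378d held 32 counts in all and was not tested. Gm25301 held 24457 counts in all and Mir378c 717. Reads that Gm25301 may share with the other miR-378 rows were not checked, which also limits the ratios to Gm25301. Per 100 counts of Gm25301 there were 4.05, 3.09 and 3.22 counts of Mir378c in control replicates 1, 2 and 3 and 2.95, 2.48 and 2.32 in ceramide replicates 1, 2 and 3. The ranges of this ratio did not overlap, by a small gap (exact permutation test, two-sided, p = 0.1, adjusted p = 0.12 over the 6 ratios), and the counting intervals of control replicate 2 (2.61 to 3.62) and ceramide replicate 1 (2.14 to 3.96) did. The ratio of Mir378b to Gm25301 was the higher one with ceramide in all 3 libraries, with 0.619 ± 0.0491 counts per 100 in control and 0.846 ± 0.176 in ceramide libraries (SD, n = 3 each; exact permutation p = 0.1, adjusted p = 0.12).

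**Figure D3:**
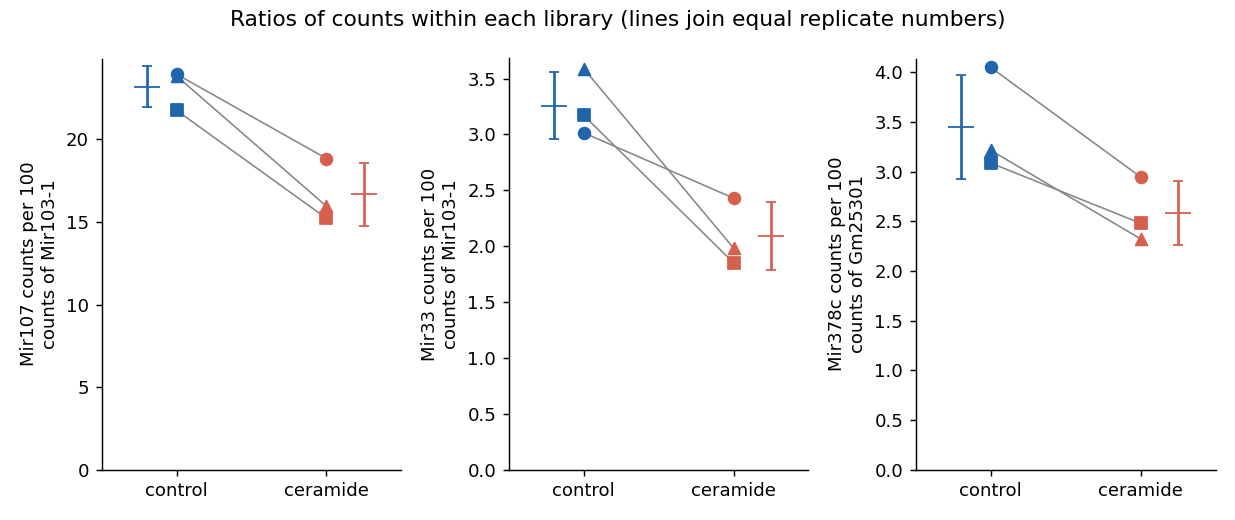
Counts of Mir107 and Mir33 per 100 counts of Mir103-1 and of Mir378c per 100 counts of Gm25301 in each library, with 1 symbol per replicate number, lines joining equal numbers and the mean ± SD (n = 3) beside the points. In each panel the 3 ceramide libraries lie below the 3 control libraries, for Mir107 at 15.2 to 18.8 against 21.8 to 23.9.

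Mir122 (chromosome 18, 65248861 to 65248926, plus strand) lies in an exon of the noncoding RNA AC157910.3. It had 51.9, 61.9 and 55.6 CPM in control replicates 1, 2 and 3 and 74.1, 75.4 and 73.7 CPM in ceramide replicates 1, 2 and 3. The ceramide libraries lay within 1.71 CPM of each other and above all control libraries. Its log2 fold change of 0.39 did not pass (SE 0.12, 95% interval 0.11 to 0.68, adjusted p = 0.064 from edgeR). With the replicate number as a block the adjusted p was 0.018 and the log2 fold change 0.38, under the fold threshold, and over all settings the adjusted p ranged from 0.018 to 0.33. miR-122 is also a miRNA of serum, and the cells were grown with serum, so the blood cell miRNAs of the marker list were set beside it. Their summed level was 336 to 377.6 CPM in control and 314 to 362 CPM in ceramide libraries. Most of that sum was Mir486, at 268 ± 25.5 CPM without and 221 ± 39.9 CPM with ceramide (SD, n = 3 each), the only blood row with a negative log2 fold change (-0.26, adjusted p = 0.27, edgeR). Of the erythrocyte miRNAs of the Mir144 locus, Mir451a lay at 36.8 ± 7.07 CPM without and 37.6 ± 3.86 CPM with ceramide, and Mir144 at 10.97 ± 1.01 and 15.7 ± 6.71 CPM (SD, n = 3 each), both with overlapping groups. None of the 5 blood rows was called, and in 2 of them, Mir223 and Mir142b, all ceramide libraries lay above all control libraries, as in 14.1% of all rows tested. Mir223 lay at 20.5 CPM without and 31.4 CPM with ceramide (log2 fold change 0.58, adjusted p = 0.055, edgeR). Mir142b lay at 26.2 CPM without and 34.7 CPM with ceramide (log2 fold change 0.40, adjusted p = 0.13, edgeR). The part of serum in the level of Mir122 was not tested.

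The replicate 1 libraries carry lane 1, the only lane number found in both groups, but may come from different runs. Between them the log2 ratio of ceramide to control was -1.20 for Mir378c, -0.75 for Gm25301, -0.36 for Mir107, -0.32 for Mir33, -0.01 for Mir103-1 and 0.51 for Mir122. For replicates 2 and 3, whose lanes differ between the groups, it was -1.01 and -0.89 for Mir378c. For Gm25301 it was -0.69 and -0.42, and for Mir33 -0.77 and -0.79. The signs were the same in all 3 pairs for Mir378c, Gm25301, Mir107, Mir33 and Mir122. This follows from the lack of overlap between the groups in these rows and adds nothing to it. Mir33 differed most between replicate 1 and the other pairs.

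**Figure D4:**
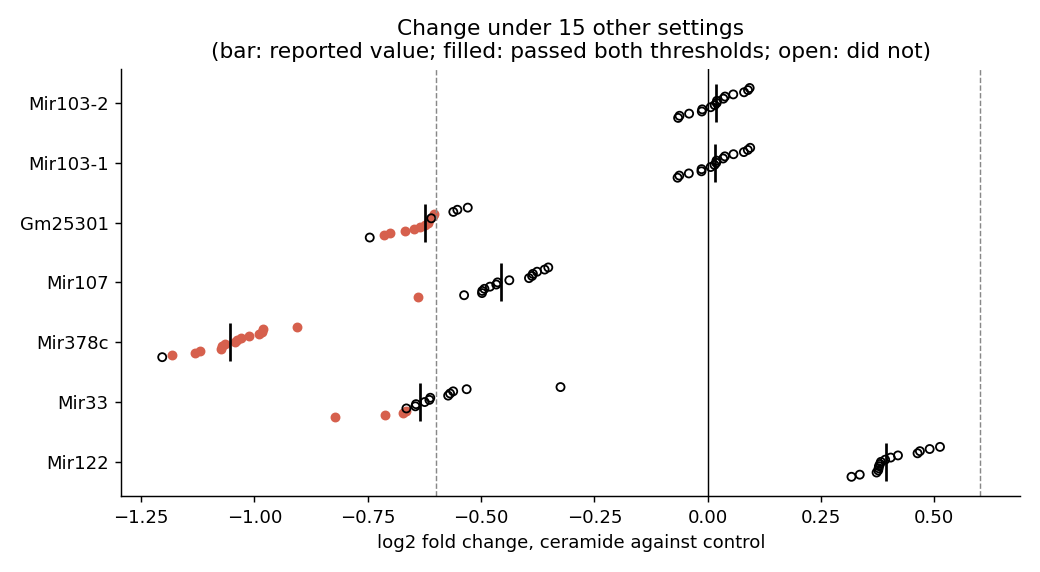
Log2 fold change of each of the 7 rows under 15 other settings, as points that are filled where both thresholds were passed, with a bar at the reported value and dashed lines at 0.6. Mir378c kept its call in 14 settings, Gm25301 in 10 and Mir33 in 4, while Mir107 gained it in 1.

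Another 20 rows of miRNAs known from work on lipid metabolism were read from the same fit, and 18 of them were tested. Of these, 1 row, Mir128-2, was called lower and none higher, near the shares of 8.37% and 3.11% over all rows tested. No row was called higher with edgeR, DESeq2 or limma-voom, while 4, 3 and 4 rows were higher at an unadjusted p under 0.05 in these tools. The median log2 fold change of the 18 rows was 0.02, with 9 values on either side of 0. Mir128-2, a hairpin of miR-128, which is known for repressing the LDL receptor, had 341, 380 and 353 CPM in the control and 217, 211 and 198 CPM in the ceramide libraries, in the order of the replicate numbers. Its log2 fold change was -0.78 (SE 0.10, adjusted p = 0.0026 from edgeR). Mir128-1, the other hairpin of miR-128, had a log2 fold change of -0.55 (adjusted p = 0.0053 from edgeR), under the fold threshold, and both hairpins are also on the neuronal marker list.

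The rows of this list with the most counts were Mir335 and Mir27b. Mir335, a miRNA of the Mest gene linked to fat cells, had 11547, 14033 and 12788 CPM in control and 18106, 17083 and 15382 CPM in ceramide replicates 1, 2 and 3, with no overlap. Its log2 fold change of 0.40 had an adjusted p of 0.038 from edgeR and stayed under the fold threshold. Mir27b, known for acting on lipid genes of the liver, lay at 12786 ± 579.9 CPM without and 11623 ± 1115 CPM with ceramide (SD, n = 3 each), with overlapping groups (log2 fold change -0.14, adjusted p = 0.30 from edgeR). An adjusted p of at most 0.05 without the fold threshold was also reached by Mir182 (0.37) and Mir183 (0.43), neighbours in the miR-183 cluster that is induced by SREBP2. Mir96, which lies between them, did not reach it (0.13, adjusted p = 0.45 from edgeR), and its groups overlapped. A part of SREBP2 in these levels was not tested.

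**Figure D5:**
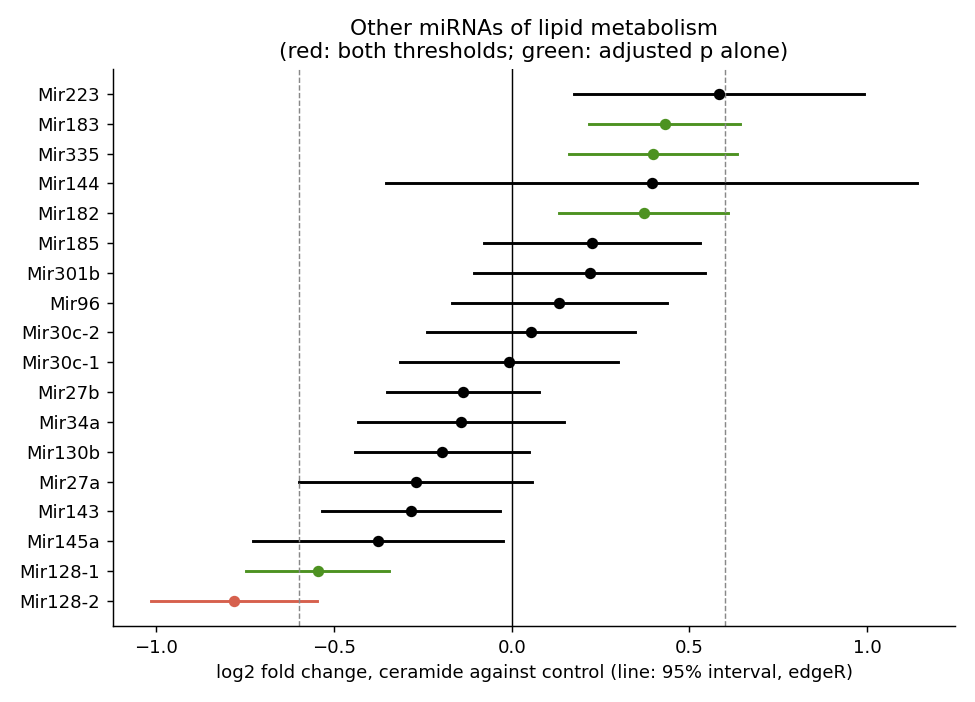
Log2 fold change with its 95% interval from edgeR for the 18 tested rows of the further list, with dashed lines at the fold threshold of 0.6. Mir128-2, in red, passed both thresholds, and Mir128-1, Mir182, Mir183 and Mir335, in green, passed the adjusted p alone.

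The rows most like each of the 7 across the 6 libraries were found by the root mean square difference of log2 CPM, each row being centred on its own mean, over 411 other rows. For Mir33 these were Mir22 (0.07) and Mir194-1 (0.10), for Mir107 Mir145a (0.07) and Mir31 (0.08), and for Gm25301 Mir34c (0.06) and Mir181c (0.09). The median difference to all other rows was 0.40 for Mir33, 0.36 for Mir107 and 0.38 for Gm25301. For Mir122 they were Mir196a-2 and Mir196a-1 (0.05 each), and for Mir103-1 Mir466d (0.01) and Mir199a-2 (0.06). Mir378c had the least close neighbours, Mir138-1 and Mir361 (0.16 each), against a median of 0.56 over all other rows.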

How the data were processed

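Small RNA libraries of exosomes were prepared by the authors with the QIAseq miRNA kit and sequenced. The authors trimmed the reads with Cutadapt 1.15, aligned them with STAR 2.5.3a to GRCm38 (mm10) and deposited raw counts per GENCODE miRNA gene, made with the quantMode option of STAR (transcriptome alignments and gene counts). The GENCODE release, the strand setting, the treatment of reads with several alignments and the use of molecular identifiers are not given in the sources used here, so that counts may be reads or molecules and intervals cover counting error only. Names and coordinates came from GENCODE M21, which held 1894 of the 1973 rows, and sequences from RefSeq, where 5 of the 7 rows were matched.

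The counts were tested with edgeR 4.0.16 in R 4.3.3 (TMM, filterByExpr, 418 rows, condition as the only term), with standard errors from the F statistic. A row was called at an adjusted p of at most 0.05 together with a log2 fold change of 0.6 or more in size. The procedure was tested on simulated data. DESeq2 1.42.0, limma-voom (limma 3.58.1), other scalings, filters and designs and the omission of each library were the alternatives. The ratio alternatives were added after seeing the data. Replicate numbers were taken as pairs in the block fit and in the differences by replicate number. The reported fit and the permutation tests did not use these pairs. The reason for the pairs was that deviations from group means correlated between libraries of equal number (0.59, 0.43 and 0.75, over rows with log2 CPM at a prior count of 2). These correlations come from the same counts, and the labels name no pairs. Single values were compared by exact permutation. The members and lists were chosen with earlier results of these data known. Named rows were the members, their relatives, overlapping genes, list rows that were called or had most counts, and the 2 rows most like each member. Other named rows, which are Mir128-1, Mir182, Mir183, Mir96 and rows of the neuronal, blood, liver and muscle lists, were named after their values were seen.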

Additional observations from a re-analysis of the deposited data

How the results depend on the processing

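The number of the 7 rows called lower, 3 in the reported fit, was 1 with median-of-ratios scaling (the size factors of DESeq2), 1 with upper-quartile scaling and 0 with the lane as a term (3 rows at an unadjusted p under 0.05), and it lay between 1 and 4 when each library was left out in turn. It was 1 without control replicate 1 and 1 without control replicate 2. In the further list, 1 row was called lower, against 2 with library size alone, 2 with no fold threshold and 0 with the lane as a term (2 rows at an unadjusted p under 0.05). The list had 0 rows called higher, against 1 with median-of-ratios scaling and 3 with no fold threshold. The log2 fold change of Mir103-1 was below 0 with library size alone (-0.062), no filter (-0.013), the lane as a term (-0.014), without control replicate 3 (-0.041) and without ceramide replicate 1 (-0.066), and that of Mir103-2 was -0.062, -0.013, -0.012, -0.041 and -0.065 in the same settings. Leaving out each library gave values up to 0.094 for Mir103-1 and 0.093 for Mir103-2. The difference in the log2 ratio of Mir107 to Mir103-1 lay between -0.57 and -0.42 when each library was left out. It was -0.35 between the libraries labelled lane 1. Over all rows, 35 were called lower and 13 higher, against 26 and 21 with median-of-ratios scaling, 28 and 23 with upper-quartile scaling, 42 and 4 with library size alone, 30 and 5 with no filter, 21 and 8 with the lane as a term, 25 and 3 without control replicate 1 and 49 and 38 with the replicate block. The replicate block changed no call of the 7 rows or of the further list. Joining rows within 5% of each other put the adjusted p of Mir33 at 0.050, just over the threshold, with 394 rows tested. With the lane as a term, the effect of ceramide rests on the replicate 1 libraries alone. The cause of the other changes was not tested. Depth limits the rarest rows, such as Mir378d with 32 counts.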

Other observations

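The liver list, Mir122 included, had 4 rows with counts, of which none was called, against 8.37% lower and 3.11% higher over all rows tested. Mir192 lay at 235 ± 15.1 CPM without and 287 ± 22.8 CPM with ceramide (SD, n = 3 each), a difference of 0.29 on the log2 scale with an adjusted p of 0.11 from edgeR. Mir194-1, which shares its mature strand with Mir194-2, lay at 71.8 ± 2.74 CPM without and 49.9 ± 6.29 CPM with ceramide (SD, n = 3 each), a difference of -0.54 with an adjusted p of 0.038 from edgeR, under the fold threshold. Of the 4 muscle rows none was called either, and the summed level of the muscle list was 120 to 148 CPM in control and 135 to 168 CPM in ceramide libraries. Both Mir133a rows, which hold the same counts, had a log2 fold change of -0.30 (adjusted p = 0.28, edgeR), and Mir1a-1, the most abundant, one of 0.30 (adjusted p = 0.30, edgeR), all with overlapping groups. Mir206 lay at 20.1 ± 2.92 CPM without and 30.2 ± 3.68 CPM with ceramide (SD, n = 3 each), with an adjusted p of 0.054 from edgeR.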
